A study of Mus musculus with 6 samples.

Results

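The genes described here encode the proteins of the cytosolic ribosome, together with the paralogs that replace some of them in particular tissues. They were chosen by name: protein-coding genes of GENCODE M21 with a symbol of the form Rpl or Rps plus a number, or Rplp0 to Rplp2, with an optional ending a, x, l, l1 or rt. This rule found 82 genes in the annotation, of which 81 were among the 18951 genes of the count table. Of these, 50 belong to the large subunit and 31 to the small subunit. Rpl3l, Rpl22l1, Rpl39l, Rpl7l1, Rps27l and Rps27rt are the 6 paralogs, and the other 75 are called core members. The symbol Rpl10l also fits the rule and was not analysed here.

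Ribosomal proteins surround the ribosomal RNA in a large and a small subunit, which are assembled in the nucleolus and joined on an mRNA. Their genes are transcribed at high levels in nearly all cells, and most of their mRNAs begin with a run of pyrimidines (the 5′ terminal oligopyrimidine, or TOP, run) through which growth signals set their translation. The mouse genome holds many processed copies of these genes, DNA made from spliced mRNA, so short reads can be shared between a gene and its copies. A few proteins have a paralog with restricted expression. Rpl3l, for example, is known as the form of Rpl3 in heart and skeletal muscle.

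The study compared cultured heart cells of C57BL/6 mice at postnatal day 1, transfected either with an siRNA against Rbm22, a splicing factor of the spliceosome, or with a scrambled control. RNA was taken 48 hours later from 3 cultures of each kind. All cultures received an siRNA, and the labels give a purity above 97.5% by cardiac troponin T staining. The protocols call the cultures biological replicates but do not state separate isolations, and p-values therefore describe only how these cultures vary.

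Library totals lay between 34269042 and 37344860 reads. Rbm22 had 798, 916 and 774 reads in libraries labelled as si-Control and 533, 466 and 491 in those labelled si-Rbm22 (log2 fold change -0.78, SE 0.097, edgeR adjusted p = 4.22e-06). However, the cell type label did not hold in libraries labelled as si-Control: Myh6, the main myosin of the mouse heart, had 3, 1 and 0 reads there against 674460, 661310 and 384503 in si-Rbm22. The 15 cardiomyocyte markers summed to 121 to 141 CPM (read counts scaled to the library size) in libraries labelled as si-Control, where Myl2, Myl3, Myl7, Mybpc3, Nppa and Pln were at 0, and to 29500 to 45400 CPM in si-Rbm22. The 10 skeletal muscle precursor markers summed to 618 to 632 CPM and 0.133 to 0.639 CPM in the same order, with Myod1, Myf5, Cdh15, Chrnd and Cacng1 at 0 in si-Rbm22. The 9 fibroblast markers summed to 21400 to 23200 CPM against 5700 to 5890 CPM, with Tcf21 at 0 in si-Control. Summed markers of endothelial cells (1.61 to 1.93 against 273 to 322 CPM), mesothelial cells (50 to 53.6 against 1920 to 2130 CPM) and macrophages (5.49 to 7.36 against 117 to 151 CPM) were also higher in si-Rbm22, from 7, 6 and 7 genes. Of those, Emcn, Tie1, Upk3b, Upk1b, Adgre1 and C1qb were at 0 in si-Control. The 4 erythroid markers reached at most 1.28 CPM in any library. All of these marker sums except the erythroid one separate the groups completely. An effect of the siRNA and a difference in cell type therefore cannot be told apart in any result that follows. In such bulk RNA, fewer cells of a type and less RNA per cell also cannot be told apart.

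Because processed copies bear on several values, the sequences of 3 members are set beside the copy that took most reads. The windows are 60 coding bases from GENCODE M21 transcripts, read 5′ to 3′, and capitals mark the bases at which the member and its copy differ. Rps18, a protein of the head of the small subunit, lies on the minus strand at chr17:33951999-33956001 (GRCm38). Gm10260, a single exon at chr13:97760072-97760632 on the minus strand, differed from its coding sequence at 4 of 459 bases, 2 of them within coding bases 313 to 372.
Rps18: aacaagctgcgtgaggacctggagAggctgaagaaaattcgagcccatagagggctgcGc
Gm10260: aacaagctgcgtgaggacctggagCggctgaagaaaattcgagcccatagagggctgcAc

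Rpl15, a large subunit protein, lies on the minus strand at chr14:18267823-18271391. Its single-exon copy Gm10020, at chr15:52477617-52478228 on the minus strand, differed at 2 of 612 aligned coding bases, both within bases 145 to 204.
Rpl15: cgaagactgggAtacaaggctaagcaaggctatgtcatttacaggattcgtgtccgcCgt
Gm10020: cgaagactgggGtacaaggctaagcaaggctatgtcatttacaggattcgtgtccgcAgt

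Rps26, a small subunit protein near the mRNA exit, lies on the minus strand at chr10:128624534-128626747. Its single-exon copy Rps26-ps1, at chr8:107439131-107439579 on the minus strand, differed at 2 of 348 coding bases, 1 of them within bases 1 to 60.
Rps26: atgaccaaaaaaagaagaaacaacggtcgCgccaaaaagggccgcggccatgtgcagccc
Rps26-ps1: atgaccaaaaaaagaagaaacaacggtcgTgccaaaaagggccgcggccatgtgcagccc

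A short read of these coding sequences that covers no differing base matches the member and its copy equally well.

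Most ribosomal protein genes were lower in si-Rbm22. The 81 members held 4.26, 4.15 and 4.44% of all reads in libraries labelled as si-Control and 2.61, 2.57 and 2.79% in si-Rbm22. The groups did not overlap, and the share was 4.28% ± 0.144 (SD, n = 3) against 2.65% ± 0.116 (difference -1.63 percentage points). A two-sided exact permutation test gave p = 0.1, the smallest value that 3 against 3 libraries allow. Reads of the mitochondrial genome moved the other way, from 2.19% ± 0.132 to 5.57% ± 0.206, and with them left out the members held 4.38% ± 0.152 and 2.81% ± 0.117.

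Across genes, differences were tested with edgeR's quasi-likelihood test, and a gene was called at a Benjamini-Hochberg adjusted p under 0.05. All 81 members passed the filter on low counts. Rpl3l and Rpl39l, without reads in si-Control, passed it only through the si-Rbm22 libraries. Both are counted among the rises below. Of the members, 67 were called lower, 9 higher and 5 not called, where 38.9% of all 14621 tested genes were called lower, 43.1% higher and 82.0% in either direction. The median log2 fold change was -0.71 over the members, with quartiles -1.02 and -0.32, and 0.05 over all tested genes. It was -0.03 over the 2303 genes that averaged 100 CPM or more, of which 43.7% were called lower. In 78 members the 3 libraries of one group all lay above the 3 of the other, which was the case for 84.2% of all tested genes. A fall of at least 2-fold was called in 23 members (18.7% of all genes) and a rise of at least 2-fold in 7 (24.4% of all genes).

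Genes of both subunits fell. Among the 46 core members of the large subunit, 41 fell, 4 rose and 1 was not called, with a median log2 fold change of -0.80. Among the 29 of the small subunit, 25 fell, 2 rose and 2 were not called, with a median of -0.58. Small subunit genes held 33.0% ± 0.0617 of the member reads in libraries labelled as si-Control and 36.1% ± 0.248 in si-Rbm22 (difference 3.09 percentage points, exact permutation p = 0.1). This share includes Rps2 and Rps18, which rose with log2 fold changes of 2.71 and 1.72. In the large subunit, Rpl29, Rpl21 and Rpl26 rose with 3.23, 2.68 and 2.16. The share without these genes was not computed, so it does not describe small subunit genes in general.

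**Figure D1:**
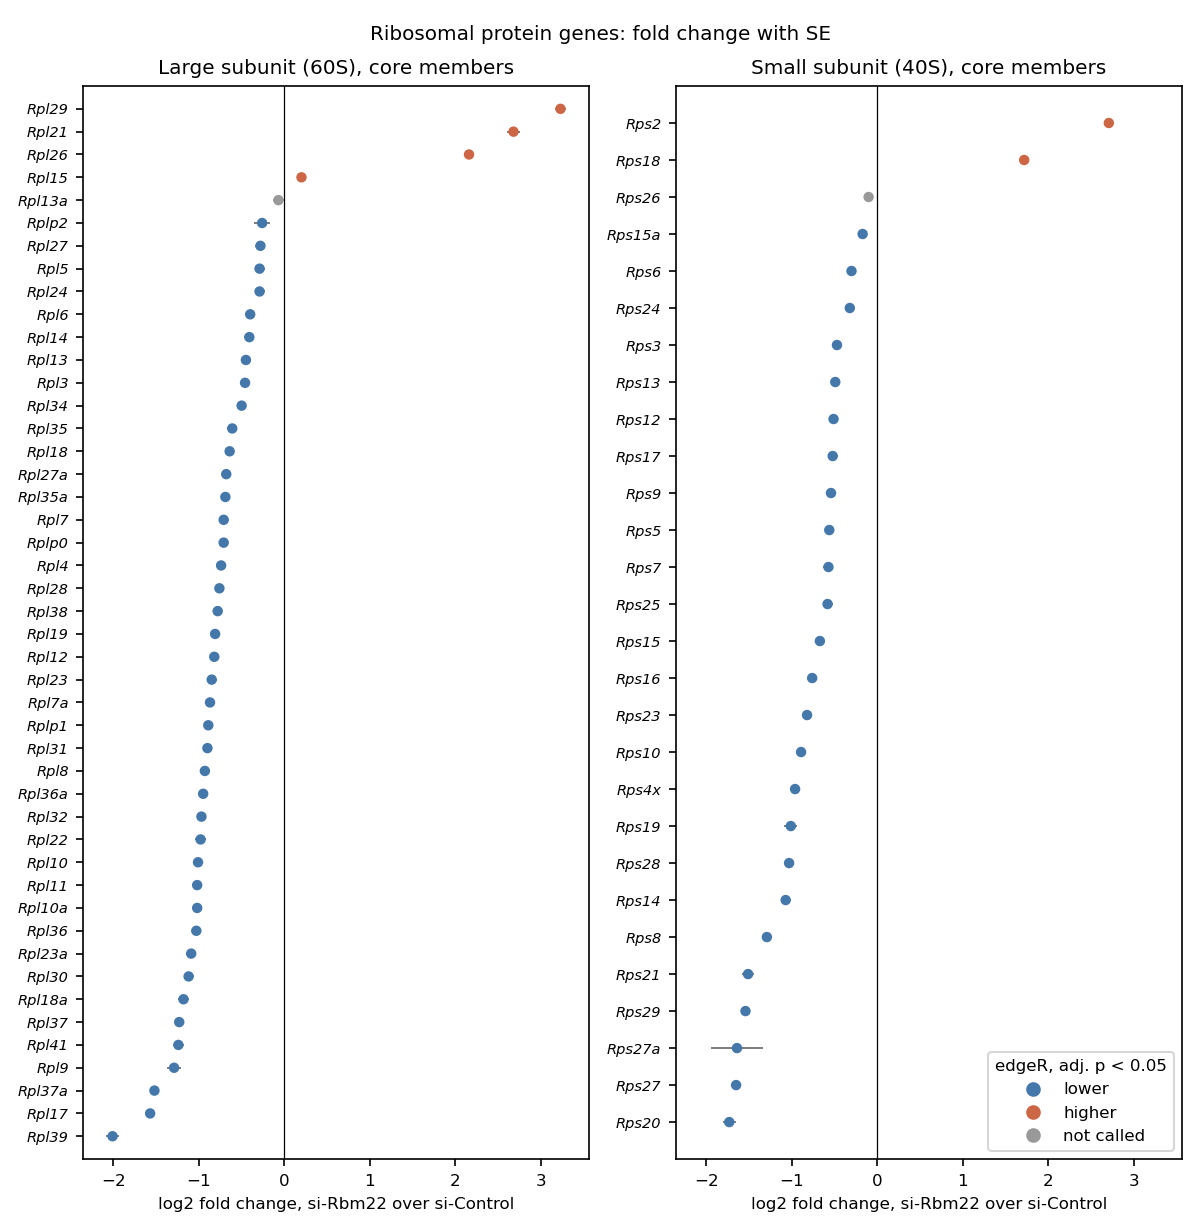
Log2 fold change (x axis, si-Rbm22 over si-Control) with its standard error for the core genes, split into the large subunit (left, 46 genes) and the small subunit (right, 28 genes drawn); colours give the edgeR call. Most points lie left of 0, with Rpl26, Rpl21 and Rpl29 on the left panel and Rps18 and Rps2 on the right panel standing far to the right, between 1.72 and 3.23.

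Levels between genes are compared per kilobase of one chosen mRNA. The highest in libraries labelled as si-Control was Rpl41, which encodes the smallest ribosomal protein, at 2864 ± 159 CPM per kilobase. It was followed by Rplp1 at 1929 ± 66.1 and Rplp0 at 1854 ± 49.6, both proteins of the stalk that recruits elongation factors, then by Rpl23a at 1530 ± 64.2 and Rps15 at 1522 ± 42.8. The mean ± SD ranges of Rplp1 and Rplp0 overlapped, as did those of Rpl23a and Rps15. All 5 fell. In CPM, Rpl41 went from 1251, 1183 and 1321 to 550, 548 and 493 (log2 fold change -1.24, SE 0.065, edgeR adjusted p = 3.37e-10). Rplp0, the core member with the most reads, went from 2530, 2445 and 2578 to 1522, 1588 and 1501 CPM (log2 fold change -0.71, SE 0.055, edgeR adjusted p = 2.43e-08). For Rplp1, Rpl23a and Rps15 the log2 fold changes were -0.89, -1.09 and -0.67.

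The largest falls among core members took their mRNA down by 65.0 to 75.1%. Rpl39, a short protein that lines the exit tunnel for the nascent chain, had 346, 337 and 353 CPM in libraries labelled as si-Control and 83.7, 78.2 and 95.3 CPM in si-Rbm22. Its groups were far apart (log2 fold change -2.01, SE 0.072, edgeR adjusted p = 5.47e-12). Rps20, a protein of the small subunit head, had 507, 496 and 518 CPM against 151, 136 and 170 CPM (log2 fold change -1.73, SE 0.075, edgeR adjusted p = 6.28e-11). Rps27, a zinc finger protein of the small subunit, had 225, 220 and 220 CPM against 70.7, 65.5 and 75.5 CPM (log2 fold change -1.65, SE 0.062, edgeR adjusted p = 9.65e-12). No library labelled si-Control came near the si-Rbm22 range for these 3 genes.

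Rps27a is made as a fusion of ubiquitin and a small subunit protein, and it was the least even of the falling genes. It had 254, 310 and 401 CPM in libraries labelled as si-Control and 68.9, 97.1 and 144 CPM in si-Rbm22. The groups did not overlap, but the SE was 0.304 beside a log2 fold change of -1.64 (edgeR adjusted p = 2.52e-03). Rpl17, Rps29 and Rpl37a had log2 fold changes of -1.57, -1.54 and -1.52 with SE of 0.056 to 0.058. Rpl17 sits at the mouth of the exit tunnel, and Rps29 and Rpl37a are small zinc-binding proteins. The rest of the falls were graded, down to Rps15a at -0.17 (SE 0.057, adjusted p = 1.45e-02).

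Core members that are known for roles outside the ribosome fell to different degrees. Rpl11 and Rpl5, which bind Mdm2 as a complex with 5S ribosomal RNA, had log2 fold changes of -1.02 (SE 0.058) and -0.29 (SE 0.059), with adjusted p of 8.89e-10 and 4.16e-04. Rps6, the substrate of S6 kinase, fell from 691 ± 21.4 to 561 ± 7.41 CPM (log2 fold change -0.30, adjusted p = 1.24e-04). Rps19 and Rps14, both linked to inherited or acquired anaemia when a copy is lost, had log2 fold changes of -1.01 and -1.07. These 5 genes were named for their roles after their values were seen. Among the genes not called were Rpl13a (-0.07) and Rps26 (-0.10) of the core members, and Rps27l (0.06) and Rpl7l1 (-0.12) of the paralogs. For Rpl13a, the deposited table also lists Gm45713, an overlapping gene on the same strand, with 377, 525 and 382 reads against 84, 88 and 71, and reads of the overlap may be split between them.

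The rises of at least 2-fold among core members were 5 genes: Rpl29, Rps2, Rpl21, Rpl26 and Rps18. Rpl29, a large subunit protein rich in lysine, had 817, 827 and 771 reads in libraries labelled as si-Control and 8153, 7047 and 8061 in si-Rbm22. Its level went from 22.5 ± 0.290 to 211 ± 13.8 CPM (log2 fold change 3.23, SE 0.067, edgeR adjusted p = 2.16e-14). Rps2, a small subunit protein at the mRNA entry, had 5936, 5535 and 5257 reads against 37906, 35588 and 39179 (log2 fold change 2.71, SE 0.060, edgeR adjusted p = 4.03e-14). Both genes were higher in every si-Rbm22 library than in any library labelled si-Control.

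Rpl21, a large subunit protein, was the core member with the fewest reads, 422, 414 and 370 against 2529, 2689 and 2726 (log2 fold change 2.68, SE 0.074, edgeR adjusted p = 3.74e-13). Rpl26, which lies near the exit tunnel, had 2932, 2902 and 3010 reads against 13328, 13696 and 13739 (log2 fold change 2.16, SE 0.058, edgeR adjusted p = 2.92e-13). Rps18 had 3352, 3045 and 3313 reads against 11209, 10695 and 10994 (log2 fold change 1.72, SE 0.062, edgeR adjusted p = 5.77e-12). In each of these genes the groups were far apart and the libraries of a group close together.

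These 5 genes stood at the bottom of the core in libraries labelled as si-Control. By CPM per kilobase they ranked 68th (Rps18), 69th (Rpl26), 70th (Rps2), 74th (Rpl29) and 75th (Rpl21) of 75. In si-Rbm22 they ranked 20th, 8th, 4th, 51st and 75th in the same order. Levels of the core spanned a 224-fold range of CPM in libraries labelled as si-Control, from 11.2 to 2518, and a 21.8-fold range in si-Rbm22, from 70.5 to 1537. Without the 5 genes the range in si-Control was 16.2-fold. Without them the median log2 fold change of the other 70 core members was -0.80 with an SD of 0.44, against an SD of 0.94 over all 75. This set was made from the values, so these figures only describe it.

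**Figure D2:**
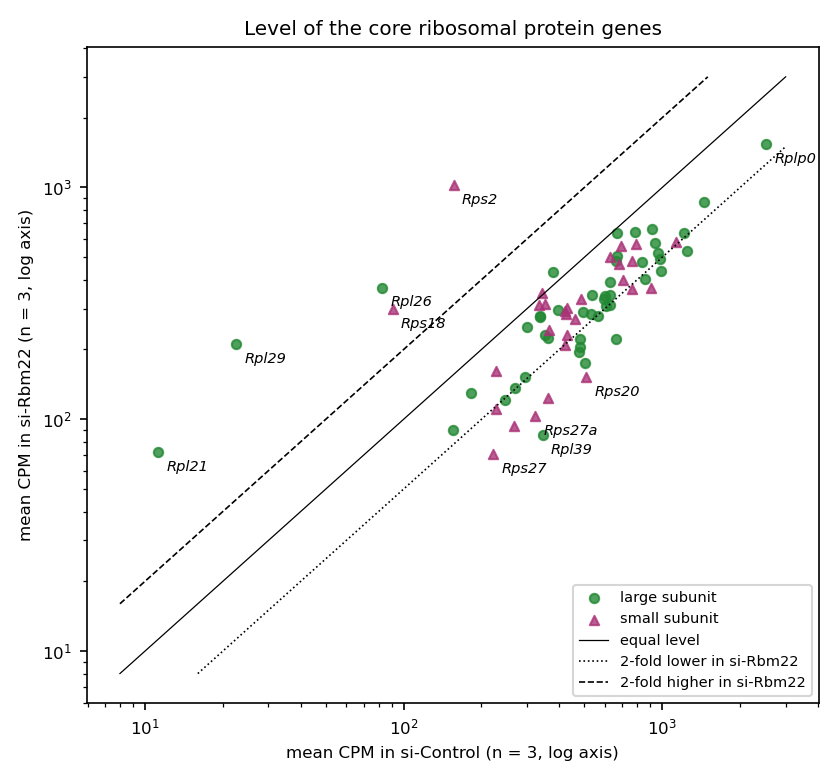
Mean TMM-scaled CPM of each core gene in si-Control (x axis) and si-Rbm22 (y axis), both log axes and n = 3 a group, with lines for equal level and for a 2-fold difference each way. Most genes lie between the equal line and the line for 2-fold lower, while Rpl21, Rpl29, Rpl26, Rps18 and Rps2 lie above the line for 2-fold higher at the left of the plot.

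The number of near-identical copies was then set beside these values. How reads that match several places were counted is not stated in the labels. By BLAST at 90% identity or more over at least 50% of the coding sequence, 76 of the 81 members had a copy elsewhere in GENCODE M21, 1020 copies in all, with a median of 9 a member. These include some genes with several exons. Other members were not counted as copies, so Rps27rt was neither counted nor summed as a copy of Rps27. Rpl21 had 79 copies, Rpl29 62, Rps2 49, Rps18 13 and Rpl26 12. Among members that fell, Rpl7a had 84, the most of any member, with a log2 fold change of -0.87, and Rpl17 had 54 with -1.57. Across the 75 core members, Spearman's rho between copy number and log2 fold change was 0.00 and Pearson's r 0.44. Without the 5 risers they were -0.16 and -0.15 over 70 genes. The 5 were picked by their fold change, so the second pair of values only describes the rest. The 6 core members with at most 1 annotated copy all fell, with log2 fold changes between -0.93 and -0.41 and a median of -0.55. The part of read placement in the values of the other 69 was not tested.

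The count table itself lists 39 of the copies as genes, and 35 of these are single exons without introns, copies of 25 members. Together the 35 held 37380, 37020 and 38190 reads in libraries labelled as si-Control and 7639, 7035 and 8151 in si-Rbm22. That is 0.106% ± 0.00463 of all reads against 0.0205% ± 0.00158 (exact permutation p = 0.1). Of the 25 copies that passed the low count filter, 14 were called lower, 6 higher and 5 not called, where 38.9% of all tested genes were called lower, 43.1% higher and 82.0% in either direction.

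Gm10260 was the copy with the most reads in libraries labelled as si-Control. It had 16873, 16836 and 17515 there, more than Rps18 itself, and 40, 43 and 41 in si-Rbm22 (log2 fold change -8.73, SE 0.090, edgeR adjusted p = 1.43e-16). Copies held 83.5 to 84.8% of the summed reads of Rps18 and its copies in si-Control and 0.521 to 0.588% in si-Rbm22. Summed, the family had 20326, 19979 and 20936 reads against 11270, 10751 and 11059, so the order of the groups turned. The log2 fold change of the sum was -0.93 (SE 0.057, edgeR adjusted p = 1.93e-09), against 1.72 for Rps18 alone. This summing was chosen after the data had been seen.

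Rpl15 alone had a small rise, from 372, 360 and 398 CPM to 434, 428 and 438 CPM (log2 fold change 0.20, SE 0.057, edgeR adjusted p = 0.0044). This call was lost without si-Control replicate 2 (log2 fold change 0.15, adjusted p = 0.0616). Its copy Gm10020 had 5331, 5201 and 5165 reads in libraries labelled as si-Control and 42, 40 and 37 in si-Rbm22. With copies summed, the log2 fold change was -0.27 (SE 0.055, adjusted p = 4.2e-04). Rps26 alone had 331, 322 and 345 CPM against 304, 320 and 310 CPM and was not called. Its copy Rps26-ps1 had 6395, 6656 and 7023 reads against 82, 49 and 86, and the sum fell by 0.73 on the log2 scale (SE 0.056, adjusted p = 2.38e-08).

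Rps2 and Rpl29 did not turn in this way, but few of their copies are listed. Summed with 3 listed single-exon copies each, of 49 and 62 annotated, they kept log2 fold changes of 2.71 and 3.18. Rpl26 had no copy in the table. Reads placed on copies without a row would be absent from these values, and their part was not tested. Rps2-ps6 rose with Rps2, from 13, 16 and 9 reads to 422, 394 and 405. The listed copy of Rpl21, BC004004, is a gene with several exons and was not summed. It had 3474, 3474 and 3696 reads against 2798, 2664 and 2783 (log2 fold change -0.41, SE 0.060, edgeR adjusted p = 2.23e-05). It matches the coding sequence of Rpl21 at 98.55% identity. How reads of that shared stretch were divided between BC004004 and Rpl21 is not known, since the counting of shared reads is not stated. Of all 81 members with copies summed, 70 were called lower and 7 higher, beside 38.9% and 43.1% of the 14596 features then tested.

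**Figure D3:**
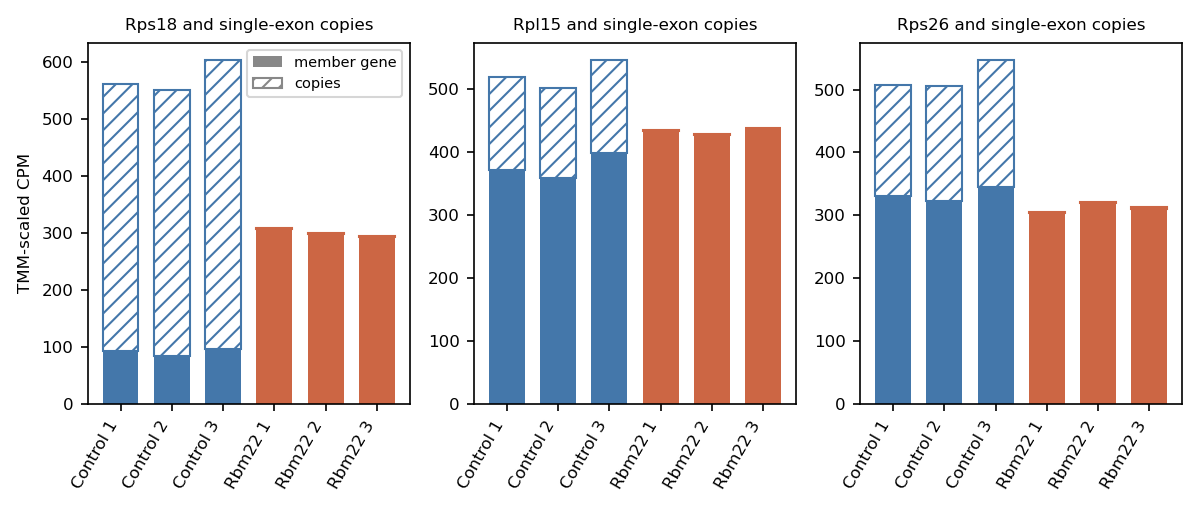
TMM-scaled CPM (y axis) of Rps18, Rpl15 and Rps26 in each of the 6 libraries (x axis), as stacked bars that start at 0, with the member gene filled and its single-exon copies hatched on top. The hatched part is large in the 3 libraries labelled si-Control and too small to see in si-Rbm22, so the whole bars are lower in si-Rbm22 for all 3 genes.

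Of the paralogs, Rpl3l and Rpl39l had reads in si-Rbm22 only. Rpl3l (chr17:24727820-24736143, plus strand) had 0, 0 and 0 reads in libraries labelled as si-Control and 101, 53 and 56 in si-Rbm22. Its level was 1.91 ± 0.737 CPM, at least 68.2-fold higher when si-Control is set at a floor of 3 reads over the group. Because Rpl3l passed the low count filter only through si-Rbm22, no p-value is given for it. Rpl3 itself, which shapes the peptidyl transferase centre, fell from 912 ± 46.8 CPM to 665 ± 9.68 CPM, a log2 fold change of -0.46 (SE 0.057, edgeR adjusted p = 3.93e-06). Even in si-Rbm22 the parent had 349 times as many reads, and Rpl3l made up 0.286% ± 0.108 of the reads of the pair. The cardiomyocyte marker sum given above was also higher in si-Rbm22 and the skeletal precursor sum lower, and their part in the rise of Rpl3l was not tested.

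Rpl39l, known from germ cells, had 0, 0 and 0 reads against 36, 53 and 51, a level of 1.27 ± 0.256 CPM and at least 45.4-fold higher. Rpl39l also passed the filter only through si-Rbm22, so no p-value is given. It made up 1.47% ± 0.349 of the reads of Rpl39l plus Rpl39 in si-Rbm22. Per kilobase the 2 paralogs did not differ beyond their spread, with 1.39 ± 0.536 CPM for Rpl3l and 1.58 ± 0.318 CPM for Rpl39l. Their coding sequences match those of the parents at 73.2% (Rpl3l) and 85.3% (Rpl39l) of bases, and neither had an annotated processed copy.

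Rpl22l1 had the deepest fall of all members. This paralog of Rpl22, an RNA-binding large subunit protein known to repress it, had 92.4, 93.2 and 100 CPM in libraries labelled as si-Control and 12.8, 9.59 and 16.1 CPM in si-Rbm22 (log2 fold change -2.89, SE 0.154, edgeR adjusted p = 1.18e-07). Its groups were far apart. Rpl22 fell as well, from 267, 265 and 277 CPM to 132, 130 and 147 CPM (log2 fold change -0.98, SE 0.061, adjusted p = 2.23e-09). Rpl22l1 made up 26.1% ± 0.425 of the reads of the pair in si-Control and 8.52% ± 1.54 in si-Rbm22. Per kilobase of the chosen mRNAs its share was 56.8% ± 0.540 in si-Control and 25.6% ± 3.81 in si-Rbm22. These mRNAs are 552 bases long for Rpl22l1 and 2051 for Rpl22, but the coding sequences are 369 and 387. Which of the pair was the larger in si-Control therefore depends on the length used, and in CPM Rpl22 was higher in both groups.

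The balance of Rps27l and its parent moved the other way. Rps27l, a p53 target gene, had 87.4, 85.6 and 88.6 CPM against 90.8, 79.8 and 102 CPM, so the groups overlapped and no difference was called (log2 fold change 0.06, SE 0.078, adjusted p = 0.488). With the fall of Rps27 its share of the pair's reads was 28.2% ± 0.435 in libraries labelled as si-Control and 56.2% ± 1.26 in si-Rbm22. Per kilobase the shares were 21.4% ± 0.361 and 47.0% ± 1.28.

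Rps27rt, a retrogene with a single exon, has a coding sequence identical to that of Rps27 (100% of bases), so its reads can be told from those of Rps27 only outside the coding part. It had 8, 7.77 and 7.61 CPM against 11.9, 13.4 and 12.9 CPM (log2 fold change 0.71, SE 0.117, edgeR adjusted p = 6.21e-05). Its share of reads with Rps27 was 3.4% ± 0.0472 and 15.4% ± 1.41. Rpl7l1, a factor of large subunit assembly, had 118, 119 and 122 CPM against 109, 102 and 117 CPM, and it was not called (log2 fold change -0.12, SE 0.061, adjusted p = 0.0765). Rpl7 fell (-0.71, SE 0.057), and the share of Rpl7l1 was 11.3% ± 0.208 and 16% ± 0.560. For each of the 6 shares of reads with the parent, the groups did not overlap, and the exact permutation test gave p = 0.1, also after Benjamini-Hochberg adjustment over the 6.

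**Figure D4:**
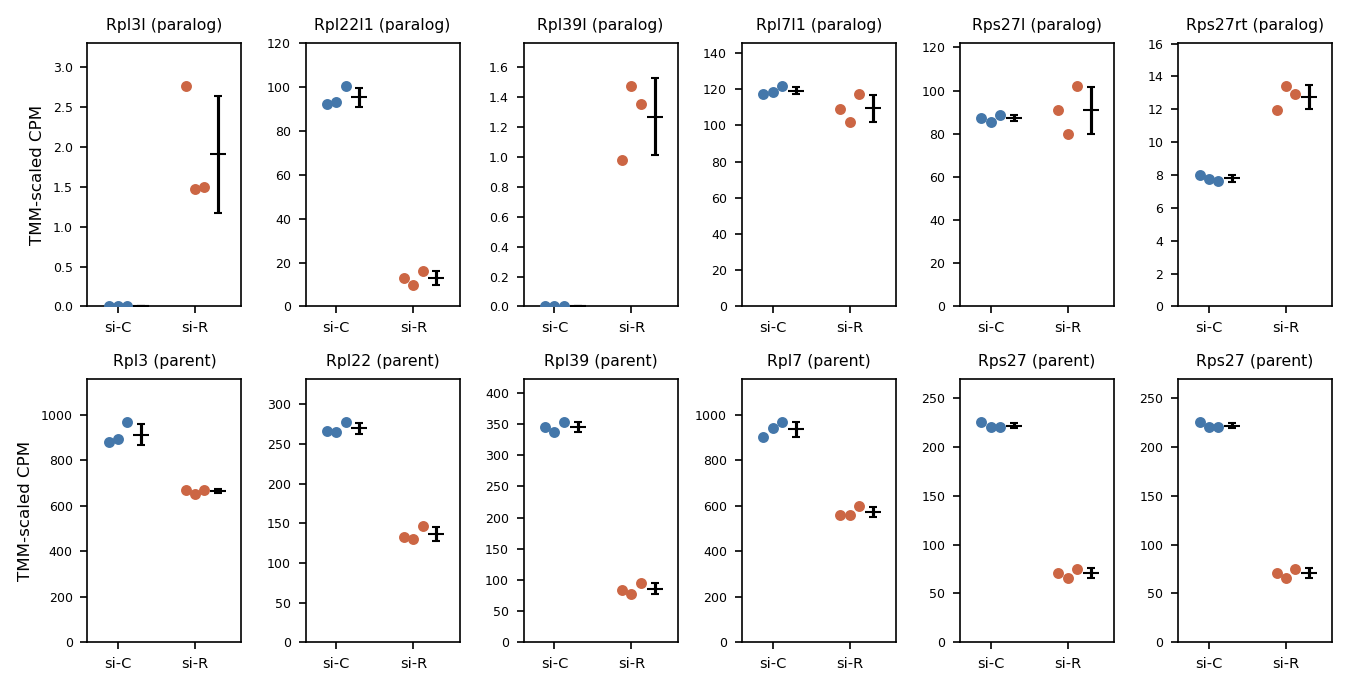
TMM-scaled CPM (y axes, each starting at 0) of the 6 paralogs (top) and their parent genes (bottom) in libraries labelled as si-Control (si-C) and si-Rbm22 (si-R); points are libraries and bars the mean with SD (n = 3). Rpl3l and Rpl39l have points above 0 in si-Rbm22 alone, Rpl22l1 falls along with Rpl22, and Rps27l overlaps between groups while Rps27 falls.

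The start sites of a few members are shown with a pyrimidine run and, in 3 of them, a TATAA, which few members have. Windows of 45 bases before to 20 bases from an annotated start were read from RefSeq (GRCm38.p6), for Rps18, Rps27 and Rpl22l1 as members that rose or fell with a TATAA before the start, and for Rpl3l as the muscle paralog. Capitals mark TATAA and the first pyrimidine run that begins from 5 bases before to 10 after the start. In Rps18 and Rps27 this run begins shortly before the annotated start and spans it, and in Rpl22l1 and Rpl3l it begins after the start.
Rps18: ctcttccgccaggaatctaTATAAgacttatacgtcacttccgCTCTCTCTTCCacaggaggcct
Rps27: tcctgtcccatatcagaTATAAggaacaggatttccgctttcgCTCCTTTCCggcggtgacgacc
Rpl22l1: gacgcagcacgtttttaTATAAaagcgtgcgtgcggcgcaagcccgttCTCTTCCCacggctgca
Rpl3l: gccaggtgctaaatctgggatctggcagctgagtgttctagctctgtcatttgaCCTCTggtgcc

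The windows are chr17:33955646-33955710 (minus strand) for Rps18, chr3:90213629-90213693 (minus strand) for Rps27, chr3:28805463-28805527 (plus strand) for Rpl22l1 and chr17:24727781-24727845 (plus strand) for Rpl3l. RefSeq lists another start for Rpl3l, whose window held neither feature. RefSeq windows were found for 61 of the 81 members, 73 windows in all. A run of C followed by at least 4 bases that are each C or T, beginning from 5 bases before to 10 after the start, was present in 52.1% of them and in 23.2% of all 32851 windows. TATAA on the sense strand, 45 to 15 bases before the start, was in 6.85% against 3.89%. Over the whole promoter window on both strands, CCGGAAG, the core of ETS-family sites, was in 34.2% against 8.86%, and AAGATGGC, the core of YY1 sites, in 11% against 2.75%. Core members with and without the pyrimidine run were then set side by side. Of 32 with a run, 27 fell and 3 rose, with a median log2 fold change of -0.66. Of 23 without one, 22 fell and 1 rose, with a median of -0.74. Over all tested genes, 38.9% were called lower and 43.1% higher. The run was sought at annotated starts only, so an mRNA of either set may begin elsewhere. The split therefore cannot compare mRNAs that have a TOP run with mRNAs that lack it.

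Other features of the genes were compared in the same way, as descriptions across 75 core members that share the same 6 libraries. Spearman's rho with the log2 fold change was 0.28 for mRNA length, 0.33 for coding length, 0.05 for GC content and 0.17 for the number of exons. It was -0.48 for CPM per kilobase in libraries labelled as si-Control, a value that enters the fold change itself. Levels in both groups had a rho of 0.75 with each other. Introns of 28 members hold 53 small nucleolar RNAs (snoRNAs), which guide modification of ribosomal RNA. All 28 are core members, of which 24 fell and 2 rose, with a median log2 fold change of -0.75. Of the 47 without one, 42 fell and 4 rose, with a median of -0.76. The shares over all tested genes were 38.9% lower and 43.1% higher.

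Ribosomal protein genes that the name rule misses were split. Fau, the fusion gene for eS30, fell from 378, 377 and 394 CPM to 134, 135 and 137 CPM (log2 fold change -1.50, SE 0.054, edgeR adjusted p = 5.57e-12). Rack1, the scaffold on the small subunit head, and Rpsa fell by 0.95 and 0.66 on the log2 scale. Rps3a1 rose from 417 ± 8.67 to 614 ± 1.99 CPM (log2 fold change 0.56, SE 0.052, adjusted p = 1.86e-07), and Rpl36al rose as well (0.37). Copies of the genes that the rule misses were not sought or summed, so the part of read placement in these values was not tested. With all 6 genes that the rule misses added, the share of reads was 4.69% ± 0.157 in libraries labelled as si-Control and 2.92% ± 0.125 in si-Rbm22.

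The rest of the translation machinery did not follow one direction. Of 40 nucleolar and assembly factors, which build the subunits, 29 rose, 2 fell and 9 were not called, with a median log2 fold change of 0.45, beside the background of 43.1% higher and 38.9% lower. Utp4 rose from 31.1 ± 0.632 to 64.4 ± 4.23 CPM (log2 fold change 1.05, SE 0.069, edgeR adjusted p = 4.29e-09), and Ltv1 and Bysl, both small subunit assembly factors, had 0.97 and 0.85. Of 15 genes for RNA polymerase I and its cofactors, which make ribosomal RNA, 9 rose, 5 fell and 1 was not called (median 0.51). Polr1b, its second largest subunit, and the initiation factor Rrn3 rose by 1.00 and 0.61, while Tcof1 fell by 0.81. Of 10 chaperones of ribosomal proteins, 5 rose and 5 fell (median 0.11). Grwd1 and Bccip, which escort uL3 and uL14, had log2 fold changes of 0.97 and 0.81, and Aamp had -0.48.

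Of 31 initiation factors, 13 rose, 9 fell and 9 were not called, with a median log2 fold change of 0.01. These are 41.9% higher and 29.0% lower, near or under the 43.1% and 38.9% of all tested genes, which are also the background for the next lists. Eif3j1 rose from 19.8 ± 1.32 to 83.6 ± 4.85 CPM (log2 fold change 2.08, SE 0.074, edgeR adjusted p = 5.45e-12), Eif5 rose (1.19) and Eif4b, a helper of the Eif4a helicase, fell (-0.87). Of 10 elongation factors, 3 rose, 6 fell and 1 was not called, with a median of -0.18. Eef1a2, the form of elongation factor 1 alpha in muscle and neurons, had 1, 0 and 1 reads in libraries labelled as si-Control and 13282, 12128 and 10088 in si-Rbm22. The ratio was 17300, with a 95% interval of 4780 to 143000 for counting error only. Eef1g rose (0.76) and Eef1d fell (-0.46). Of 15 growth regulators, which act on ribosomal protein mRNAs or ribosome production, 6 rose, 7 fell and 2 were not called (median -0.11). Mycn rose from 0.214 ± 0.0298 to 27.8 ± 3.01 CPM (log2 fold change 6.99, SE 0.186, edgeR adjusted p = 2.58e-13), and Larp1b and Larp4, relatives of the TOP-binding protein Larp1, had 1.77 and 1.14. The marker sums above move with these lists as well, and their part was not tested.

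**Figure D5:**
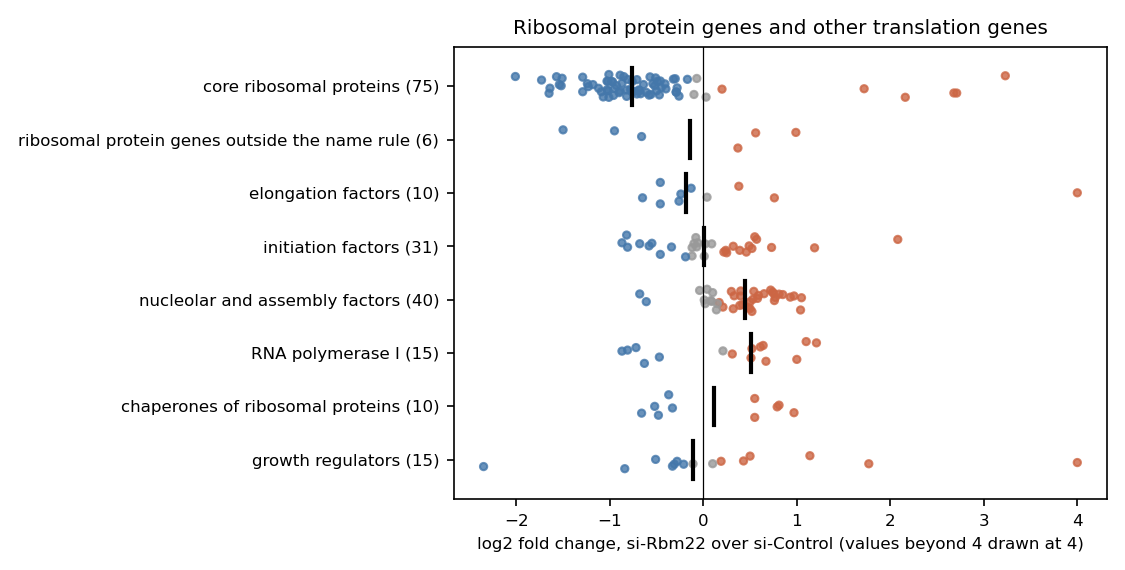
Log2 fold change (x axis, si-Rbm22 over si-Control, values beyond 4 drawn at 4) of each gene of the core ribosomal proteins and of 7 other gene lists (y axis, number of genes in brackets), with the median as a black bar and colours for lower (blue), higher (orange) or not called (grey). The core ribosomal proteins centre at -0.76 and the nucleolar and assembly factors at 0.45.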

How the data were processed

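The authors deposited raw read counts for each Ensembl gene, as whole numbers without normalization. GRCm38 and the tools fastp, HISAT2, HTSeq and DESeq2 are listed in the submitters' processing notes. Versions, roles, the strand setting and the treatment of reads with several matches are not stated in those notes or in the labels. No other value columns were present (0). Of 18951 identifiers, 18868 matched GENCODE M21.

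Counts were tested with edgeR 4.0.16 in R 4.3.3 (TMM scaling, filterByExpr, robust quasi-likelihood fit, group as the only term), over all 14621 genes that passed the filter. CPM values are TMM-scaled. SE was taken as the size of the log2 fold change over the root of its F statistic. Tested on simulated data of 13021 genes with 200 changed, the fit recovered 85.1% of 1.5-fold, 98.5% of 2-fold and 100% of 4-fold changes and called 0.055% of the others. Means and dispersions in that simulation came from the si-Control libraries alone. In the real comparison 82.0% of genes were called, so these rates may not hold there. Shares were compared by exact permutation (scipy 1.17.1). Copies were found with BLAST 2.17.0 against annotated transcripts. Length per gene is that of 1 annotated mRNA, preferring curated RefSeq matches. Genes with no reads in a group were set at 3 reads over the group (0.028 CPM in si-Control). Floors and intervals reflect counting error alone, because several reads can come from 1 molecule.

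Named members are the paralogs with their parents, up to 8 largest rises and falls among called members with a mean of at least 5 CPM, the 5 highest per length, and the 3 smallest p in each other list. Members and lists were chosen with earlier results of these data known. Alternatives covered scaling (with DESeq2 1.42.0 and limma 3.58.1 as other tests), low count filters, thresholds, each library left out and the replicate number as a block. Same-numbered libraries did not deviate together (correlations -0.0164, 0.00689 and 0.00841), so the numbers were not treated as pairs. Some named genes are not reported here.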

Additional observations from a re-analysis of the deposited data

How the results depend on the processing

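The numbers of members called higher and lower stayed within 1.5 times under every scaling, filter, test and threshold tried and with each library left out. A low count filter of at least 10 CPM in 3 libraries removed Rpl3l and Rpl39l from the test, leaving 7 members higher and 66 lower. The median log2 fold change of all tested genes was 0.18 with DESeq2 and 0.14 without a filter, against 0.05. At a fold of at least 1.5 the calls in the other lists were 48, against 105. The median log2 fold change was -0.47 over members with at most 1 near-identical annotated copy, against -0.71. That set includes the paralogs Rpl3l, Rpl39l and Rps27rt, all called higher. Its 6 core members alone had a median of -0.55. The part of copy number in this shift was not tested. Of 830 recomputed values for 49 genes, 822 kept their call and also their direction, except that Rps27l, not called, was slightly lower without si-Rbm22 replicate 3. With single-exon copies summed, which was chosen after the data had been seen, Rpl15 (-0.27) and Rps18 (-0.93) turned, and Rps26 became a call (-0.73). Rpl15 lost its call without si-Control replicate 2 (adjusted p = 0.0616). Rpl7l1 gained one with upper quartile scaling (adjusted p = 0.0432), with no filter (0.0321) and without si-Rbm22 replicate 3 (0.00306), and Rpl13a without that same library (log2 fold change -0.14, adjusted p = 0.0129). In the fit with the replicate number as a block, 11945 genes were called against 11983, and 9 members higher and 67 lower as before. The 3 libraries that go against their cell type label are the whole si-Control group, so no comparison without them could be made. Apart from constructions that drop or add reads, the cause of these changes was not tested.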
